A study of Mus musculus with 6 samples.

Results

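Sestrins and genes of the amino acid stress response were followed in mouse thyroid glands. The set comprised 10 genes of the 21878 in the deposited count table, picked by symbol. They were the 3 sestrins (Sesn1, Sesn2 and Sesn3), Ddit4, and 6 genes of the kind that the transcription factor ATF4 controls (Trib3, Chac1, Asns, Atf5, Psat1 and Phgdh). All 10 had enough reads to be compared. The set was proposed with results of the comparison between the genotypes in view, so the values of its members in that comparison are a description. They are given without p-values, and where members are counted against the limits used for all genes, the count supports nothing about them.

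RNA-seq had been performed on thyroid glands of female mice at 12 weeks, with 3 libraries per group. One group was labelled Thy-Tet1+/+, wild-type littermates with intact Tet1. The other was labelled Thy-Tet1-/-, in which a floxed Tet1 allele had been combined with a Cre transgene active in the follicular epithelial cells of the thyroid. The design text of the series speaks of 3 mice per group, while the sample labels only number the libraries, and whether the control mice carried Cre is not given in the sources used here. The comparison asks which transcripts differ between the genotypes, in the context of a study of TET1 and thyroid function. Because whole glands were sequenced, fewer cells of a type and less RNA per cell cannot be told apart.

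Sestrins are small cytosolic proteins that restrain mTORC1, the kinase complex that links amino acid supply to growth. SESN1 and SESN2 bind leucine, and without leucine they inhibit GATOR2, an activator of the pathway. Sesn1 is known as a p53 target, Sesn3 as a FOXO target, and Sesn2 as a target of p53, NRF2 and ATF4. In the integrated stress response, a kinase such as GCN2 or PERK phosphorylates the translation factor eIF2alpha, which favours translation of ATF4. ATF4 then induces genes for amino acid synthesis, uptake and charging onto tRNA, often through C/EBP-ATF response elements in their promoters. The thyroid follicular cell makes and secretes large amounts of thyroglobulin, and so has a constant demand for amino acids.

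Promoter windows of the 10 genes, from 250 bases before to 50 bases after the annotated start, were taken from RefSeq (GRCm38.p6) and searched on both strands for the core of the C/EBP-ATF response element, TGATGNAA. It was found in 3 of 10 members, in 5 of the 13 cytosolic aminoacyl-tRNA synthetase genes that had a window, and in 1219 of 27025 genes (4.51%). Among the genes with enough reads to be compared it was found in 302 of 11216 (2.69%). For each member and synthetase with the element, a match is printed 5′ to 3′ on the strand of the gene because these genes are described below, with the element in capitals, and where it lies on the opposite strand its reverse complement is seen. Positions of the first capital are counted from 0 at the first base of the gene, with negative values before it. The member matches began at 14 in Trib3, at -193 in Chac1 and at -23 in Asns.
Trib3, chr2:152344028-152344057, minus strand: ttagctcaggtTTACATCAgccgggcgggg
Chac1, chr2:119351038-119351067, plus strand: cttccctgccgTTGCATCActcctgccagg
Asns, chr6:7693214-7693243, minus strand: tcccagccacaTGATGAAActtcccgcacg
Aars, chr8:111033840-111033869, plus strand: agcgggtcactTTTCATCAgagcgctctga
Gars, chr6:55037960-55037989, plus strand: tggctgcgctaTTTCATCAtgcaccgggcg
Iars, chr13:49682126-49682155, plus strand: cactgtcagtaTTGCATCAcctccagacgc
Tars, chr15:11399655-11399684, minus strand: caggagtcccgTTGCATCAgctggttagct
Yars, chr4:129189895-129189924, plus strand: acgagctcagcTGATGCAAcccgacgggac

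The same windows were searched for a forkhead (FOXO) core, GTAAACA, and for the E-box CACGTG, which bHLH factors such as TFEB and the clock factors bind. The forkhead core was found in 1 of 10 members, Sesn1, against 4.05% of all genes, and in 0 of 13 synthetase windows. The E-box was found in 0 of 10 members, in 4 of 13 synthetase windows and in 8.09% of all genes. Among the genes with enough reads to be compared, the shares were 3.165% for the forkhead core and 11.37% for the E-box. Both motifs were read on both strands, and the 3 motifs share no match position in the members. A match describes letters in the window and is no evidence of binding, and its absence says nothing about more distant elements. The Sesn1 match, shown as the only forkhead core among the sestrins, began at 22.
Sesn1, chr10:41810585-41810614, plus strand: gaaccttctacTGTTTACcagccttttggg

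The 6 libraries held 8867683 to 19950898 counted reads each. Levels are given as CPM (reads relative to the library size, scaled by edgeR's TMM). The smallest level taken as different from 0 was 3 counts, which equalled 0.150 to 0.338 CPM when divided by total counts without TMM. Such floors cover counting error only. Tet1 itself went against the label, with 48, 71 and 62 counts in Thy-Tet1+/+ and 172, 162 and 241 in those labelled Thy-Tet1-/-, so the second group is named by its label throughout. Counts were per gene, and reads over the floxed exons were not analysed here. The study reports less TET1 protein, by tissue staining, and less hydroxymethylcytosine, the product of TET1, in thyroid glands of its Thy-Tet1-/- mice. It also genotyped the mice by PCR of tail DNA and examined TET1 by western blot. Protein and DNA were not measured here. None of the 10 follicular cell markers was at 0 in any library, and their mean log2 CPM was 7.70 to 7.81 in Thy-Tet1+/+ and 7.60 to 7.77 in those labelled Thy-Tet1-/-. Their summed level did not overlap, at 256500 to 316600 CPM against 193700 to 239600 CPM. Of 12 marker lists, 0 had scores without overlap between the groups. The skeletal muscle score (mean log2 CPM of 10 genes) was 9.07, 6.03 and 8.36 in Thy-Tet1+/+ and 3.34, 9.26 and 1.15 in those labelled Thy-Tet1-/-. For the parathyroid list it was 3.36 in Thy-Tet1+/+ replicate 2 and 8.53 to 9.82 in the other 5 libraries.

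A gene was called when it differed by more than 1.5-fold, up or down, and its unadjusted p from edgeR's quasi-likelihood test was under 0.05. This held for 1301 of 14143 tested genes (9.2%), with 783 higher (5.54%) and 518 lower (3.66%) in the libraries labelled Thy-Tet1-/-. With Benjamini-Hochberg adjustment, 16 genes (0.113%) had an adjusted p under 0.05. Of the 10 members, 2 met the limits (Sesn2 and Ddit4), both lower, and 1 (Sesn2) had groups that did not overlap. Among all tested genes 26.8% had groups without overlap, 12.5% with the libraries labelled Thy-Tet1-/- higher and 14.3% with them lower. The median log2 fold change was -0.09 over the members and 0.0006 over all tested genes. Since this contrast was known when the members were picked, nothing is read from their share.

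Sesn2 (NCBI gene 230784, chr4:132492804-132510456, GRCm38.p6) had 57.3, 55.9 and 40.9 CPM in Thy-Tet1+/+ and 15.7, 19.2 and 16.5 CPM in the libraries labelled Thy-Tet1-/-. Every library labelled Thy-Tet1-/- lay below every Thy-Tet1+/+ library, and the lowest control was well above the highest of the other group. The means were 51.3 ± 9.10 CPM and 17.1 ± 1.82 CPM (SD, n = 3 each), which is 3.00-fold lower in the libraries labelled Thy-Tet1-/-. On the log2 scale the difference was -1.58 (standard error 0.17), larger in size than that of 98.2% of the tested genes. Read counts of 289 to 1046 lie behind these values, so that counting error was small. Over 14 alternative analyses its log2 fold change lay between -1.72 and -1.05.

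Sesn1 (NCBI gene 140742, chr10:41810574-41908436) had 62.2, 104 and 93.0 CPM in Thy-Tet1+/+ and 88.2, 82.9 and 95.7 CPM in the libraries labelled Thy-Tet1-/-. The groups overlapped, with the lowest and the highest value both in Thy-Tet1+/+. Sesn3 (NCBI gene 75747, chr9:14276301-14326134) had 39.8, 42.4 and 32.0 CPM in Thy-Tet1+/+ and 23.0, 37.5 and 34.4 CPM in the libraries labelled Thy-Tet1-/-. These groups overlapped too, and without the low library labelled Thy-Tet1-/- replicate 1 the log2 fold change was -0.11. The log2 fold changes were 0.04 (standard error 0.19) for Sesn1 and -0.27 (standard error 0.21) for Sesn3.

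**Figure D1:**
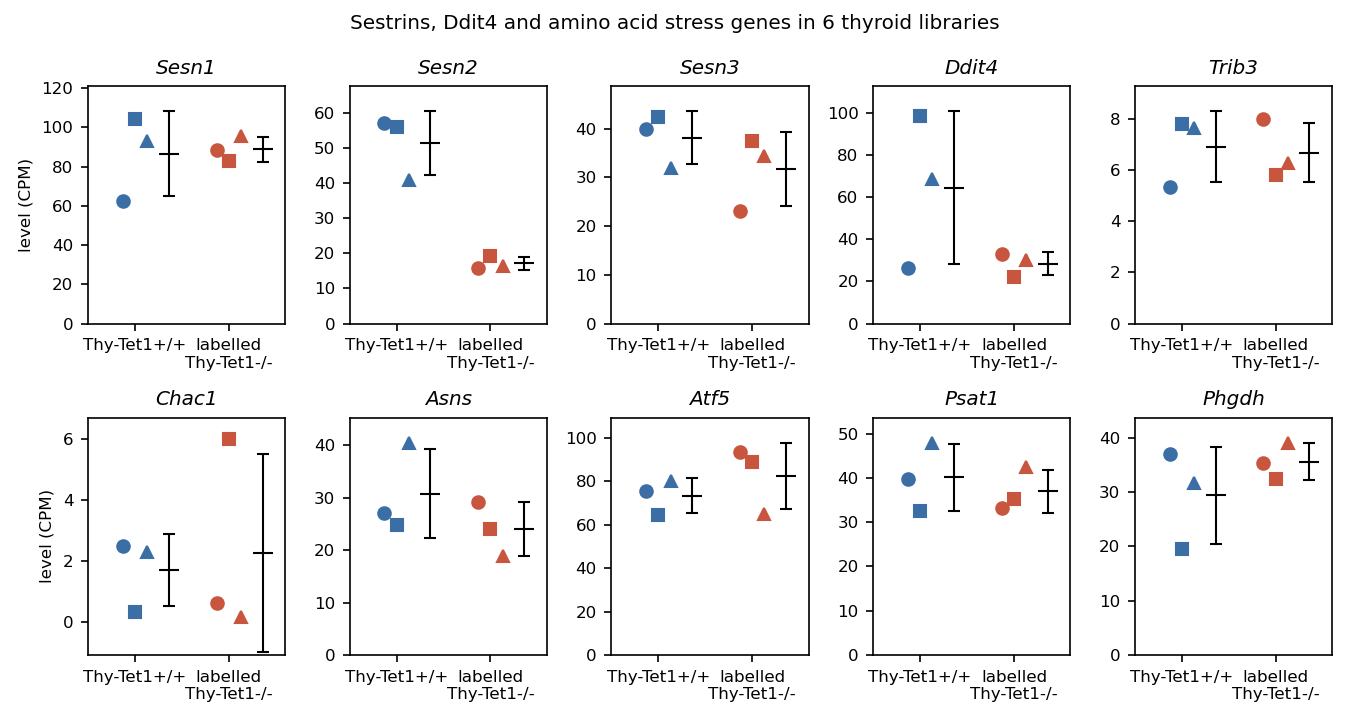
Level (CPM, linear axis from 0 or just below it) of each of the 10 genes in the 6 libraries, with circles, squares and triangles for replicates 1, 2 and 3 and black bars for the mean and SD of 3 libraries. Sesn2 alone shows groups apart, at 40.9 to 57.3 CPM against 15.7 to 19.2 CPM, while Ddit4 has a control at 26.4 CPM among the libraries labelled Thy-Tet1-/-.

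To compare the sestrins with each other, levels were divided by the length of the longest GENCODE transcript (3809 bp for Sesn1, 3475 bp for Sesn2 and 9125 bp for Sesn3). On this per-length scale Sesn2 made up 44.3%, 33.5% and 29.6% of the summed sestrin level in Thy-Tet1+/+ and 15.0%, 17.6% and 14.1% in those labelled Thy-Tet1-/-. Sesn1 made up 44.0%, 56.9% and 61.5% in Thy-Tet1+/+ and 76.7%, 69.3% and 74.7% in those labelled Thy-Tet1-/-. Sesn1 was thus the leading sestrin transcript in each library except Thy-Tet1+/+ replicate 1, where Sesn1 and Sesn2 were level. Sesn3 stayed at 8.35% to 13.1% in all 6 libraries.

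The genes whose pattern over the 6 libraries lay closest to each sestrin were found among 9941 tested genes with a mean of at least 10 CPM, by the root mean square difference of log2 CPM after centring each gene on its mean. For Sesn2 they were Vasn (0.17), Cited4 (0.22) and Gmppb (0.25), with log2 fold changes of -1.56, -1.68 and -1.51. Part of the counts of Vasn and Gmppb is uncertain, since exons of Vasn overlap Dnaja3 by 160 bp on the same strand and those of Gmppb overlap Rnf123 by 937 bp on the opposite strand. For Sesn1 they were Epha1 (0.04), Phc2 (0.05) and Dennd3 (0.05), and for Sesn3 they were Lmbrd2 (0.08), Zkscan1 (0.10) and Fzd3 (0.10). The closest genes to Sesn2 were further from it than those of the other sestrins from theirs. This distance is not scaled to the range of a gene over the 6 libraries. That range was 1.86 log2 units for Sesn2, 0.74 for Sesn1 and 0.88 for Sesn3. A larger distance and large fold changes of the neighbours can follow from it alone, so no distinct pattern is read from them.

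Ddit4 (NCBI gene 74747, chr10:59949675-59951770), also known as REDD1, encodes a stress-induced protein that lowers mTORC1 activity through the TSC complex and is a known glucocorticoid and hypoxia target. It had 26.4, 98.6 and 68.5 CPM in Thy-Tet1+/+ and 33.1, 22.3 and 30.1 CPM in the libraries labelled Thy-Tet1-/-. The groups overlapped, because Thy-Tet1+/+ replicate 1 lay among the libraries labelled Thy-Tet1-/-. The means were 64.5 ± 36.2 CPM and 28.5 ± 5.59 CPM (SD, n = 3 each), 2.27-fold lower in the libraries labelled Thy-Tet1-/-, a log2 fold change of -1.18 (standard error 0.44). Its SD of log2 CPM within groups was 0.72, against a median of 0.25 over the tested genes. Without Thy-Tet1+/+ replicate 2, the highest library, the log2 fold change was -0.75. Without any other single library it lay between -1.55 and -1.05, about as large as with all 6. The limits were met in 1 of these 6 analyses, the one without Thy-Tet1+/+ replicate 1 (-1.55). Thy-Tet1+/+ replicate 2 also had the lowest parathyroid score and the highest macrophage score (5.61 against 3.47 to 4.73), and the part of either in the Ddit4 level was not tested.

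Chac1 (NCBI gene 69065, chr2:119351242-119354326), a glutathione-degrading enzyme induced late in the stress response, was the most variable member. Its counts were 21, 6 and 41 in Thy-Tet1+/+ and 11, 101 and 3 in those labelled Thy-Tet1-/-. In CPM these were 2.49, 0.321 and 2.27 against 0.599, 5.98 and 0.152, so that the highest and the lowest library, 39.3-fold apart, were both labelled Thy-Tet1-/-. The lowest, with 3 counts, lay at the floor. The summed level of the 10 skeletal muscle markers was 6893, 817 and 4134 CPM in Thy-Tet1+/+ and 123, 7505 and 41.1 CPM in those labelled Thy-Tet1-/-, with none at 0. The libraries with the 3 highest Chac1 levels (labelled Thy-Tet1-/- replicate 2, Thy-Tet1+/+ replicates 1 and 3) were also those with the 3 highest skeletal muscle scores. The log2 fold change was 0.42 (standard error 1.28). With the skeletal muscle score as a covariate it was 1.44 (standard error 0.55) and met the limits, and without the library labelled Thy-Tet1-/- replicate 2 it was -2.13, so its direction changed with the setting.

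Trib3 (NCBI gene 228775, chr2:152337425-152344060), a pseudokinase that restrains ATF4 signalling, had 5.33, 7.80 and 7.65 CPM in Thy-Tet1+/+ and 8.002, 5.80 and 6.30 CPM in the libraries labelled Thy-Tet1-/-. Asns (NCBI gene 27053, chr6:7675165-7693209), asparagine synthetase, had 27.0, 24.7 and 40.5 CPM against 29.2, 24.1 and 18.8 CPM. Both genes had overlapping groups, and for Asns the highest library was a control and the lowest was labelled Thy-Tet1-/-. Their log2 fold changes were -0.05 (standard error 0.26) and -0.36 (standard error 0.24).

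Atf5 (NCBI gene 107503, chr7:44812256-44816658), a transcription factor of the same stress response, had 75.4, 64.6 and 80.1 CPM in Thy-Tet1+/+ and 93.3, 89.0 and 64.9 CPM in the libraries labelled Thy-Tet1-/-. Overlap came from the library labelled Thy-Tet1-/- replicate 3, which lay at the level of the lowest control. Exons of Atf5 overlap those of Nup62 and Il4i1 on the opposite strand by 82 bp, and the sources used here do not say if reads were counted by strand. The log2 fold change was 0.17 (standard error 0.17).

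Phgdh (NCBI gene 236539, chr3:98313171-98339969), which encodes the first enzyme of serine synthesis, had 37.0, 19.5 and 31.7 CPM in Thy-Tet1+/+ and 35.4, 32.4 and 39.0 CPM in the libraries labelled Thy-Tet1-/-. Psat1 (NCBI gene 107272, chr19:15905123-15925059), which encodes the next enzyme of the pathway, had 39.8, 32.6 and 47.9 CPM against 33.2, 35.3 and 42.4 CPM. Neither gene separated the groups, and the lowest library of both was Thy-Tet1+/+ replicate 2. The log2 fold changes were 0.28 (standard error 0.24) for Phgdh and -0.12 (standard error 0.18) for Psat1. Of the 6 ATF4-type members, then, 0 met the limits, 3 had positive and 3 negative log2 fold changes, and their median was 0.06.

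Per kilobase of transcript, the order of mean levels in Thy-Tet1+/+ began with Atf5 (40.4 ± 4.39 CPM per kb, SD, n = 3), Ddit4 (36.8 ± 20.7) and Sesn1 (22.7 ± 5.69). Next came Phgdh (15.5 ± 4.74), Psat1 (15.3 ± 2.93), Asns (15.3 ± 4.22) and Sesn2 (14.8 ± 2.62), each overlapping its neighbours. Sesn3 (4.17 ± 0.596), Trib3 (3.42 ± 0.683) and Chac1 (1.04 ± 0.730) were the lowest. Only the steps from Sesn2 to Sesn3 and from Trib3 to Chac1 separated neighbours in every library of the group. For the libraries labelled Thy-Tet1-/- the per-length order was Atf5 (45.4 ± 8.43), Sesn1 (23.3 ± 1.68), Phgdh (18.8 ± 1.76), Ddit4 (16.2 ± 3.18), Psat1 (14.1 ± 1.85), Asns (11.9 ± 2.56), Sesn2 (4.93 ± 0.524), Sesn3 (3.47 ± 0.837), Trib3 (3.31 ± 0.570) and Chac1 (1.37 ± 1.98). There the neighbours that did not overlap were Atf5 and Sesn1, Sesn1 and Phgdh, Asns and Sesn2, and Sesn2 and Sesn3. Sesn2 therefore lay at the level of the amino acid enzymes in Thy-Tet1+/+ and below them in the libraries labelled Thy-Tet1-/-.

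**Figure D2:**
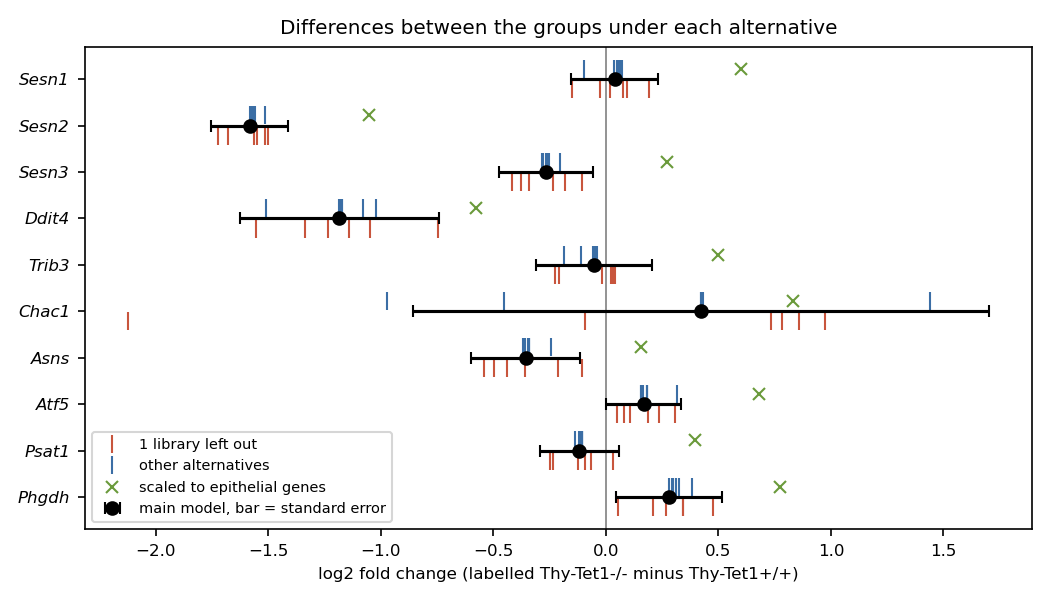
Log2 fold change (labelled Thy-Tet1-/- minus Thy-Tet1+/+) of each gene, with black points and standard error bars for the edgeR fit and marks for 14 alternatives. Sesn2 runs from -1.72 to -1.05 and Ddit4 from -1.55 to -0.58, while Chac1 runs from -2.13 (without the library labelled Thy-Tet1-/- replicate 2) to 1.44 (muscle covariate), and the crosses show scaling to 10 epithelial genes, which raised the median of all tested genes to 0.53.

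When libraries were scaled to 10 epithelial genes instead, the median log2 fold change over all tested genes became 0.53. Sesn2 (-1.05) and Ddit4 (-0.58) kept their sign under this scaling, but Ddit4 no longer met the limits. Such scaling moves all genes by nearly the same amount, so values relative to the raised median stay nearly unchanged by construction. Those values, such as -0.26 for Sesn3 and -0.37 for Asns, are therefore no further check. Taken relative to the median of all genes, Sesn2, Sesn3, Ddit4, Asns, Atf5 and Phgdh kept their direction in every alternative, while Sesn1, Trib3, Chac1 and Psat1 changed it in at least 1.

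Beyond the members, 151 genes of 7 lists covering amino acid sensing, mTORC1, the stress kinases, amino acid supply, tRNA charging, p53 and FOXO were examined. These lists too were chosen with earlier results of these data known, so their shares beside those of all tested genes are a description. Of these, 149 were tested, and Slc7a11 and Fgf21 had too few reads. The limits were met by 19 (12.8%), 9 higher and 10 lower, where 9.2% of all tested genes met them. Groups did not overlap for 51 of the 149 (34.2%), 19 higher and 32 lower, beside 26.8% of all tested genes, 12.5% higher and 14.3% lower. None had an adjusted p under 0.05 in edgeR after Benjamini-Hochberg adjustment, while 43 had an unadjusted p under 0.05. DESeq2 gave 21 and limma-voom gave 0 with an adjusted p under 0.05. All 19 kept their sign in each alternative, and 6 of them (Aen, Cdkn1a, Foxo3, Klf9, Rars and Tsc22d3) met the limits in every alternative other than epithelial scaling. Of these 6, only Cdkn1a and Tsc22d3 still met them with that scaling. With the skeletal muscle score as a covariate 14 pathway genes met the limits, and the calls of Gatsl3 (0.56), Flcn (0.50), Rragd (-0.42), Eif2b5 (-0.49), Shmt1 (0.96), Aars (-0.52), Ddb2 (0.42) and Bcl6 (0.57) ended.

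**Figure D3:**
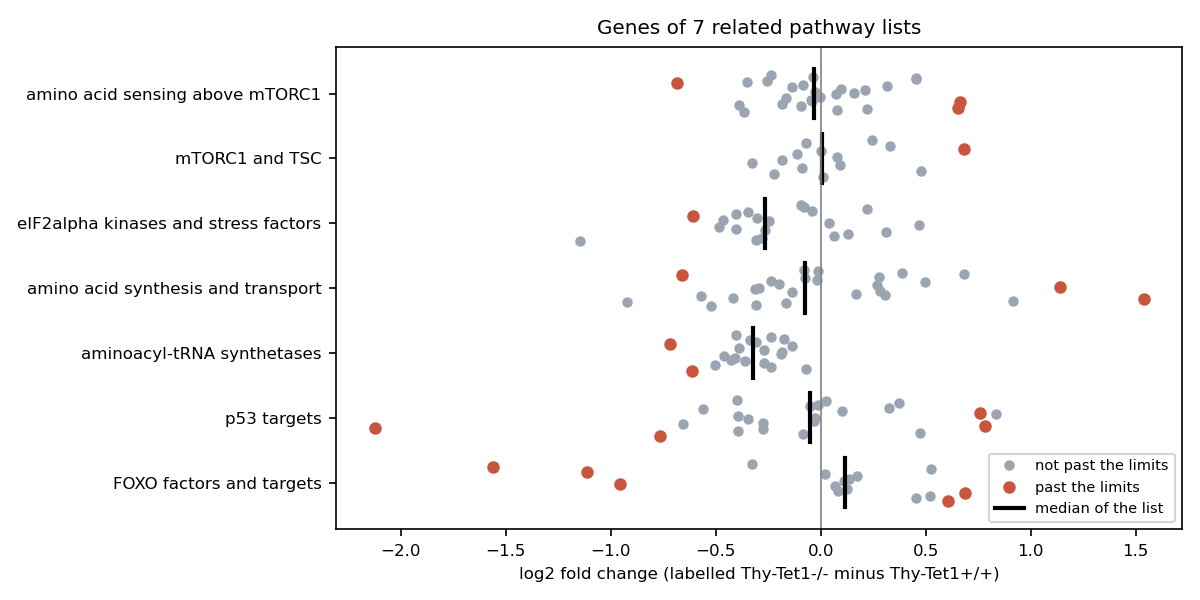
Log2 fold change (labelled Thy-Tet1-/- minus Thy-Tet1+/+) of the 149 tested genes in 7 pathway lists, each point a gene, red where the limits were met, with a black line at the median of the list. The synthetase list has its 20 points below 0, from -0.72 to -0.07 (3 of 20 below 0 after epithelial scaling), and the p53 and FOXO lists hold the lowest called points, Cdkn1a at -2.13 and Tsc22d3 at -1.56.

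Of 28 genes for amino acid sensing above mTORC1, 3 met the limits (0 with the muscle covariate) and the median log2 fold change was -0.03. Gatsl3, now named Castor1, encodes the arginine sensor that acts on GATOR2 beside the sestrins. It had 11.3, 14.9 and 11.9 CPM in Thy-Tet1+/+ and 19.5, 19.1 and 21.8 CPM in the libraries labelled Thy-Tet1-/-, with all of the latter higher (log2 fold change 0.67, standard error 0.16, Benjamini-Hochberg adjusted p = 0.117, edgeR quasi-likelihood test). Flcn, folliculin, which acts on the Rag GTPases, had 40.1, 47.8 and 60.6 CPM against 93.6, 63.3 and 76.9 CPM, again with all libraries labelled Thy-Tet1-/- higher (log2 fold change 0.65). Rragd, a Rag GTPase, had 129, 80.7 and 145 CPM against 75.0, 84.7 and 60.6 CPM (log2 fold change -0.69), and its groups overlapped. The call of Rragd ended without replicate 1 or 3 of Thy-Tet1+/+ or replicate 3 of the other group (-0.51 to -0.62). For Flcn the same held without replicate 1 of Thy-Tet1+/+ (0.52) and without replicate 1 of the other group (0.48).

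The list of mTORC1 and the TSC complex held 14 genes, with 1 call and a median log2 fold change of 0.0046. The call was Tfeb, the lysosomal transcription factor that mTORC1 keeps in the cytoplasm. It had 16.1, 17.3 and 18.9 CPM in Thy-Tet1+/+ and 30.6, 32.4 and 21.1 CPM in the libraries labelled Thy-Tet1-/-. No library labelled Thy-Tet1-/- overlapped with the controls (log2 fold change 0.68, Benjamini-Hochberg adjusted p = 0.141, edgeR quasi-likelihood test). Without the library labelled Thy-Tet1-/- replicate 2 it was 0.56 and not called.

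Among 21 genes of the eIF2alpha kinases and stress factors, 1 met the limits, 15 had negative log2 fold changes and the median was -0.26. Atf4 had 95.2, 141 and 184 CPM in Thy-Tet1+/+ and 114, 117 and 109 CPM in the libraries labelled Thy-Tet1-/-, and the groups overlapped because the lowest library was a control. The fitted difference was -0.31 on the log2 scale (standard error 0.23, Benjamini-Hochberg adjusted p = 0.512, edgeR quasi-likelihood test), and it was 0.24 after epithelial scaling, which is -0.30 relative to the raised median of all genes. Ddit3, which encodes the stress factor CHOP, had 19.1, 18.4 and 25.7 CPM against 22.4, 23.7 and 23.1 CPM (log2 fold change 0.13), within the spread of the controls. Part of its counts is uncertain, since its exons overlap Mars by 68 bp. Eif2ak4, which encodes the amino acid sensing kinase GCN2, had 26.4, 18.6 and 19.5 CPM against 32.2, 26.3 and 30.6 CPM. The groups overlapped by a narrow margin, and the log2 fold change of 0.47 was below the limit, which it passed without Thy-Tet1+/+ replicate 1 (0.64). The call was Eif2b5, the catalytic subunit of the exchange factor eIF2B that eIF2alpha phosphorylation blocks, with 86.1, 58.8 and 64.0 CPM against 42.1, 49.0 and 45.7 CPM. All its libraries labelled Thy-Tet1-/- were lower (log2 fold change -0.61, adjusted p = 0.134 from the same edgeR test), and its call ended without replicate 1 of Thy-Tet1+/+ (-0.43) and without replicate 1 of the other group (-0.57).

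For amino acid synthesis and transport, 27 of 29 genes were tested, 3 met the limits and the median was -0.07. Slc7a1, a cationic amino acid transporter for arginine and lysine, had 59.4, 54.1 and 61.6 CPM in Thy-Tet1+/+ and 31.4, 35.3 and 44.1 CPM in the libraries labelled Thy-Tet1-/-, all lower (log2 fold change -0.66, Benjamini-Hochberg adjusted p = 0.106, edgeR quasi-likelihood test). Shmt1, the cytosolic serine hydroxymethyltransferase, had 1.90, 1.44 and 2.11 CPM against 4.79, 2.96 and 4.27 CPM, all higher (log2 fold change 1.14). Cth, the cysteine-forming enzyme of transsulfuration, had 2.02, 0.748 and 0.444 CPM against 2.23, 3.79 and 2.89 CPM. Its groups lay side by side without overlap (log2 fold change 1.54), on 8 to 64 counts per library. Leaving out the library labelled Thy-Tet1-/- replicate 1 ended all 3 calls, at -0.58 for Slc7a1, 0.97 for Shmt1 and 1.68 for Cth. The call of Cth also ended without replicate 2 (1.33) or 3 (1.14) of Thy-Tet1+/+ and without replicate 2 (1.32) or 3 (1.56) of the other group.

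The cytosolic aminoacyl-tRNA synthetases, which load amino acids onto tRNA, all had negative log2 fold changes, 20 of 20 from -0.72 to -0.07. After epithelial scaling 3 of 20 were negative. All 20 then lay below the raised median of all genes, which a near-uniform shift of all genes leaves nearly fixed by construction. With the scaling used here the median of the list was -0.32, against 0.0006 over all tested genes. All 3 libraries labelled Thy-Tet1-/- lay below all 3 Thy-Tet1+/+ libraries for 12 of the 20 (60%), where 14.3% of all tested genes were in this state. The list was chosen with earlier results known and its genes may vary together, so this difference is a description and was not tested. The limits were met by 2, and 9 had an unadjusted p under 0.05. Rars, for arginine, had 87.5, 58.9 and 81.0 CPM in Thy-Tet1+/+ and 47.5, 45.1 and 45.7 CPM in the libraries labelled Thy-Tet1-/-, with all of the latter lower (log2 fold change -0.72, standard error 0.16, Benjamini-Hochberg adjusted p = 0.105, edgeR quasi-likelihood test). Aars, for alanine, had 148, 115 and 136 CPM against 88.3, 90.2 and 82.3 CPM, also all lower (log2 fold change -0.61, standard error 0.12, adjusted p = 0.097 from the same edgeR test). Aars exons overlap those of Exosc6 on the same strand by 1326 bp, so part of its counts is uncertain, and its call ended without replicate 1 of Thy-Tet1+/+ (-0.53) and without replicate 3 of the other group (-0.58). Between 18 and 20 of the synthetases stayed negative in every alternative other than epithelial scaling, and the median of the list lay 0.27 to 0.44 below that of all genes in each alternative. The synthetases with a C/EBP-ATF core in the windows printed above (Aars, Gars, Iars, Tars and Yars) had log2 fold changes of -0.61, -0.43, -0.46, -0.34 and -0.41. The members with that core (Trib3, Chac1 and Asns) had -0.05, 0.42 and -0.36, with groups that overlapped. Groups did not overlap for each of those 5 synthetases. Synthetases without a core found, some of which had no window, ran from -0.72 (Rars) to -0.07 (Cars). Farsb, with a window but no core, had -0.36 and groups without overlap. Eprs, Hars, Nars, Rars, Sars and Wars, also without a core found, had groups without overlap too. The remaining synthetases without a core found had groups that overlapped. Neither a link between the core and the level nor the difference between the synthetases and the members was tested.

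**Figure D4:**
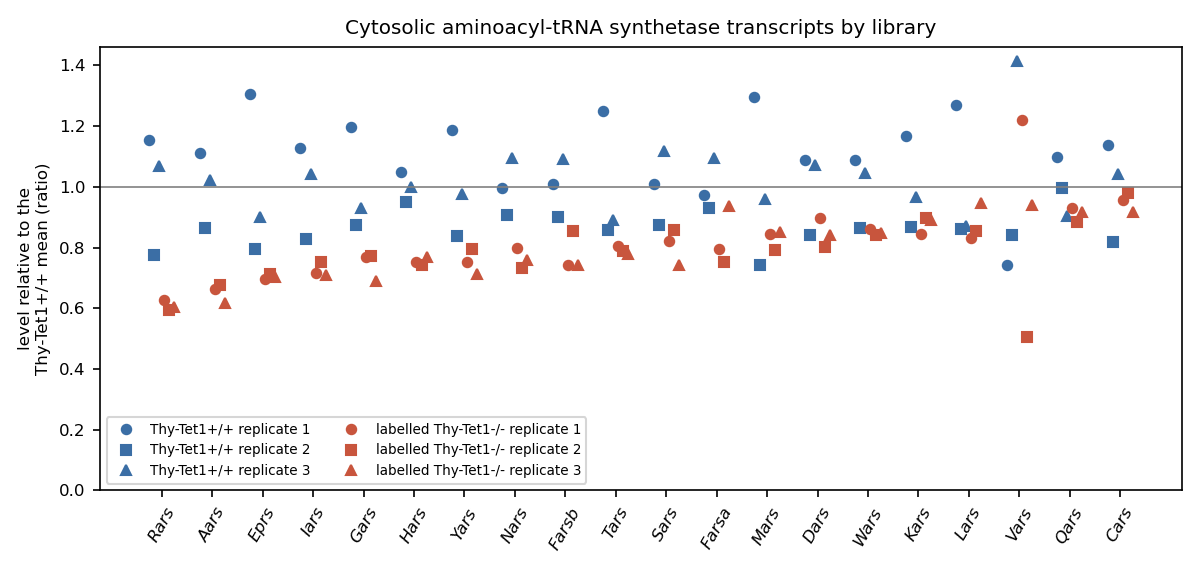
Level of each of the 20 cytosolic aminoacyl-tRNA synthetase genes in the 6 libraries as a ratio to its Thy-Tet1+/+ mean (linear axis from 0), ordered by log2 fold change. For 12 of 20 genes all red symbols (labelled Thy-Tet1-/-) lie below all blue ones (Thy-Tet1+/+), and all 20 log2 fold changes are below 0 with the scaling used here (3 of 20 after epithelial scaling).

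Among 23 p53 targets, 4 (17.4%) met the limits, beside 9.2% of all tested genes, and the median was -0.05. Cdkn1a, the cell cycle inhibitor p21, had 46.9, 150 and 106 CPM in Thy-Tet1+/+ and 24.6, 24.9 and 19.95 CPM in the libraries labelled Thy-Tet1-/-. The controls were spread widely, but each lay above every library labelled Thy-Tet1-/- (log2 fold change -2.13, standard error 0.40, Benjamini-Hochberg adjusted p = 0.091, edgeR quasi-likelihood test). Aen, an apoptosis nuclease, was also lower in all 3, with 18.4, 14.7 and 18.0 CPM against 8.98, 11.1 and 9.95 CPM (log2 fold change -0.77). Plk2, a polo-like kinase, was higher in all 3, with 36.3, 22.5 and 37.5 CPM against 54.2, 55.7 and 52.6 CPM (log2 fold change 0.76). Ddb2, a DNA damage recognition factor, was also higher in all 3 and had 6.88, 11.1 and 12.03 CPM against 16.3, 12.6 and 23.1 CPM (log2 fold change 0.78). Exons of Ddb2 overlap Acp2 by 652 bp on the opposite strand. The call of Plk2 was lost without Thy-Tet1+/+ replicate 2 (0.55), and that of Ddb2 without any of Thy-Tet1+/+ replicates 1 and 2 or the libraries labelled Thy-Tet1-/- replicates 1 and 3 (0.51 to 0.86), with limma-voom (0.70) and with the muscle covariate (0.42). Mdm2, the standard p53 feedback target, which was named after its value was seen, had a log2 fold change of -0.03, and the calls among p53 targets lay in both directions.

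In the FOXO list, 5 of 16 genes (31.2%) met the limits, beside 9.2% of all tested genes, and the median was 0.12. Foxo3 itself had 333, 227 and 217 CPM in Thy-Tet1+/+ and 128, 128 and 144 CPM in the libraries labelled Thy-Tet1-/-, with all of the latter lower (log2 fold change -0.96, standard error 0.19, Benjamini-Hochberg adjusted p = 0.097, edgeR quasi-likelihood test). Klf9, a Krüppel-like factor also known as a target of glucocorticoids and thyroid hormone, had 225, 281 and 197 CPM against 99.5, 120 and 106 CPM, all lower (log2 fold change -1.11, adjusted p = 0.073 from the same edgeR test). Tsc22d3, the glucocorticoid-induced leucine zipper, had 136, 380 and 195 CPM against 79.1, 89.4 and 72.9 CPM, all lower (log2 fold change -1.56, adjusted p = 0.112 from the same edgeR test). Cdkn1b, the cell cycle inhibitor p27, went the other way with 77.4, 79.5 and 80.1 CPM against 118, 119 and 144 CPM, all higher (log2 fold change 0.69). The fifth, Bcl6, had a log2 fold change of 0.61, and leaving out any library other than Thy-Tet1+/+ replicate 3 and the one labelled Thy-Tet1-/- replicate 2 ended its call (0.42 to 0.61). Cdkn1b lost its call without the library labelled Thy-Tet1-/- replicate 3 (0.58). Ddit4, Cdkn1a, Klf9 and Tsc22d3 shared their highest library, Thy-Tet1+/+ replicate 2, whose parathyroid and macrophage scores are given above. Sesn1 and Sesn3 were also highest in that library, as were several genes of the pathway lists, Txnip, Perp, Atf3 and Btg2 among them. Sesn2 and Foxo3 were not. The shared library therefore does not set Ddit4, Cdkn1a, Klf9 and Tsc22d3 apart, and its share among all tested genes was not counted.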

How the data were processed

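Raw read counts per gene, whole numbers without normalization, were deposited by the authors for 21878 genes in 6 libraries, of which 4100 had no read. The submitters' processing notes name the build mm10, which is the GRCm38 assembly. The aligner, the counting program and the use of strand are not given in the sources used here. The protocol describes polyadenylated RNA and names 2 library kits with different RNA inputs, 1 of them directional, and it speaks of retinas although the tissue is given as thyroid. Value columns of no listed sample numbered 0, and 0 rows lacked a gene name. In the symbol column, 27 entries that had become dates were restored from their NCBI identifiers. Replicate counts differed beyond sampling noise in all 6 pairs compared.

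The groups were compared with edgeR 4.0.16 under R 4.3.3, using TMM scaling, filterByExpr (14143 genes kept), glmQLFit and glmQLFTest, with Benjamini-Hochberg adjusted p. All 6 libraries entered the fit, without covariates. The limits on the log2 fold change and on unadjusted p are those of the study. The titles number the libraries, but the sample descriptions do not tell the biological samples apart, so p-values measure only the spread between these samples, which may be technical. CPM used TMM-scaled library sizes, and log2 CPM had a prior count of 2. Total counts of 8867683 to 19950898 make counting error small except for genes under about 100 reads, and intervals for counting are not given.

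The members and the gene lists were chosen with earlier results of these data known. Named genes were the 10 members, Tet1, called genes of each pathway list (the 4 with the smallest p where more were called), Atf4, Ddit3, Eif2ak4, and 3 genes closest in pattern to each sestrin. Bcl6, Mdm2, Cars, Farsb, Eprs, Hars, Nars, Sars, Wars and the synthetases beside their promoter match were named after their values were seen. The same held for the highest library shared by Ddit4, Cdkn1a, Klf9 and Tsc22d3, and for the genes compared with them there. Alternatives were RLE size factors, DESeq2 1.42.0, limma-voom (limma 3.58.1), no filter, a minimum of 10 counts per library, scaling to 10 epithelial genes (Epcam, Cdh1, Krt7, Krt8, Krt18, Krt19, Cldn3, Cldn7, Cdh16 and Esrp1), the skeletal muscle score as a covariate, a replicate block, and leaving out single libraries. Transcript lengths and exon overlaps came from GENCODE M21, gene positions and promoter windows from RefSeq GRCm38.p6. The code was tested on simulated counts.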

Additional observations from a re-analysis of the deposited data

How the results depend on the processing

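Scaling to 10 epithelial genes changed the counts most. It called 4624 of the tested genes in place of 1301, 98.8% of them higher in place of 60.2%, and 46 pathway genes in place of 19 (44 higher and 2 lower). It also called 4 of the 10 members in place of 2. These were Sesn2, lower, and Sesn1 (0.60), Atf5 (0.68) and Phgdh (0.78), all higher, while Ddit4 (-0.58) lost its call. Atf4 moved from -0.31 to 0.24. In relation to the raised median of all genes (0.53), Atf4 was at -0.30 and Sesn2 at -1.58. A near-uniform shift of all genes leaves such values nearly unchanged by construction, so they are no further check. Limma-voom called 1 member, Sesn2, and the muscle covariate called 3, Sesn2, Ddit4 and Chac1, with 14 pathway genes. With 1 library left out, calls ranged from 1074 to 1502 over all genes, from 1 to 2 among the members and from 12 to 20 among the pathway genes. The lowest of these, 12, was without the library labelled Thy-Tet1-/- replicate 1. The share of calls that were higher was 55.2% with the muscle covariate and 53.1% to 59.7% with a library left out. Adjusted p under 0.05 was reached by 16 genes with edgeR, by 1192 with DESeq2, by 25 with at least 10 counts in every library, by 2445 after epithelial scaling, by 0 with the muscle covariate, and by 0 to 1 with a library left out. Pathway genes with an adjusted p under 0.05 numbered 26 after epithelial scaling. The cause of these shifts was not tested. Chac1 and Cth had no value where at least 10 counts were required in every library.

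With replicate number added as a block, 1145 genes (714 higher and 431 lower) and 18 pathway genes met the limits, 0 genes had an adjusted p under 0.05, and 1 member, Sesn2, was called in place of 2. Deviations from the group means correlated at -0.17, -0.37 and -0.19 between libraries with the same number, which gave no sign of pairing. Libraries with different numbers were not compared in this way, so the check cannot settle whether the numbers pair the samples.

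With 3 libraries per group, the spread between libraries limited most comparisons, that of Chac1 among them (SD of log2 CPM within groups 1.92). Chac1, Cth and Shmt1 also had low counts. All p-values of pathway genes rest on the spread between libraries.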
